A study of Mus musculus with 24 samples.

Results

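The genes described here are 10 mitochondrial genes of the hypoxia response and their counterparts. They were taken from a list of symbols: Ndufa4l2 and Cox4i2, subunit forms that cells make when oxygen is low, with their usual paralogues Ndufa4 and Cox4i1, the organelle proteins Mgarp, Higd1a and Lonp1, and the mitophagy receptors Bnip3, Bnip3l and Fundc1. All 10 were among the 45706 genes of the count table, and all 10 passed the filter on low counts that left 16573 genes for testing. Messenger RNA levels were read from RNA sequencing of 24 libraries of mouse embryonic fibroblasts, connective tissue cells cultured from E13.5 embryos. The cells had 1 of 4 genotypes, named WT (wild type), Vhl, Rassf1a and Vhl/Rassf1a, and each genotype had 3 libraries named GFP, given as control, and 3 named Cre, given as knockout. WT Cre is also labelled knockout, with no gene named as altered, and what the GFP libraries of the other genotypes carried is not said. The labels give neither the alleles and exons altered, nor how Cre or GFP was delivered, nor the strain, nor how many embryos or cultures stand behind the 3 libraries of a group. Should a group's libraries stem from 1 culture, the p-values below describe no more than technical spread.

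Vhl is the substrate-recognition subunit of the ubiquitin ligase that marks the alpha subunits of hypoxia-inducible factors (HIF) for breakdown in the presence of oxygen, and cells without it run a HIF programme in normal air. Part of that programme is aimed at mitochondria, where HIF targets exchange subunits of the respiratory chain, raise a matrix protease and place receptors on the outer membrane that mark the organelle for removal by autophagy (mitophagy). Rassf1a is a tumour suppressor that binds microtubules and kinases of the Hippo pathway.

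Library totals ran from 29934173 to 55849586 counts, and levels are given as CPM, counts scaled to a common library size. The Vhl gene served as check of the Vhl labels: its log2 fold change with Cre was -3.38 in Vhl cells and -3.42 in Vhl/Rassf1a cells, past the threshold in both, and it was not past the threshold in WT (0.02) or Rassf1a cells (-0.05). The Rassf1a alteration was not checked in this way, and the comparisons that involve it rest on the labels alone. The 6 fibroblast markers summed to between 25180 and 38410 CPM in every library (lower with Cre in Vhl cells, as given with the other markers), and hemoglobin genes were at or near 0. Replicate 1 of Rassf1a GFP and replicate 2 of Vhl/Rassf1a GFP differed more from their own groups than any other library did. Over the tested genes, the deviations of these 2 libraries from their group means correlated with each other (r = 0.496). In both, Bnip3, Bnip3l and Fundc1 were lower than in the other 2 libraries of the group (log2 differences of -0.35, -0.37 and -0.34 in the first and -0.35, -0.37 and -0.54 in the second), while Cox4i1, Lonp1 and Ndufa4l2 were higher (0.23, 0.24 and 0.28, and 0.24, 0.19 and 0.44). Comparisons that use these libraries are given with and without them where a call depends on it.

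With Cre in Vhl cells, 7 of the 10 genes rose and 1 fell, against 17.4% of all tested genes that rose and 18.7% that fell. The 10 genes were chosen with earlier results of these data known, so the shares of all genes beside them give no independent test of the set. The genes that rose were Ndufa4l2, Cox4i2, Mgarp, Higd1a, Lonp1, Bnip3 and Bnip3l, the one that fell was Ndufa4, and Cox4i1 and Fundc1 were not past the threshold. The Cre effect, the log2 fold change of Cre against GFP, had a median of 1.66 over the 10 genes and of -0.011 over all genes tested, and 6 of the 10 rose by over 1, as did 4.56% of all genes. In Vhl/Rassf1a cells the counts were again 7 and 1, against 14.9% and 14.8%, with a median of 1.91 over the 10 genes and 0 over all genes, and 6 rose by over 1, as did 3.61% of all genes. The threshold throughout was a Benjamini-Hochberg adjusted p of 0.05 over all 16573 genes in edgeR's quasi-likelihood test. Cre and GFP libraries did not overlap for these 8 genes in either genotype, against 25.2% (Cre above) and 27.5% (Cre below) of all genes in Vhl cells and 19.8% and 19.3% in Vhl/Rassf1a cells. In RNA of a whole culture, a change in the share of cells that express a gene and a change in the amount per cell cannot be told apart.

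**Figure D1:**
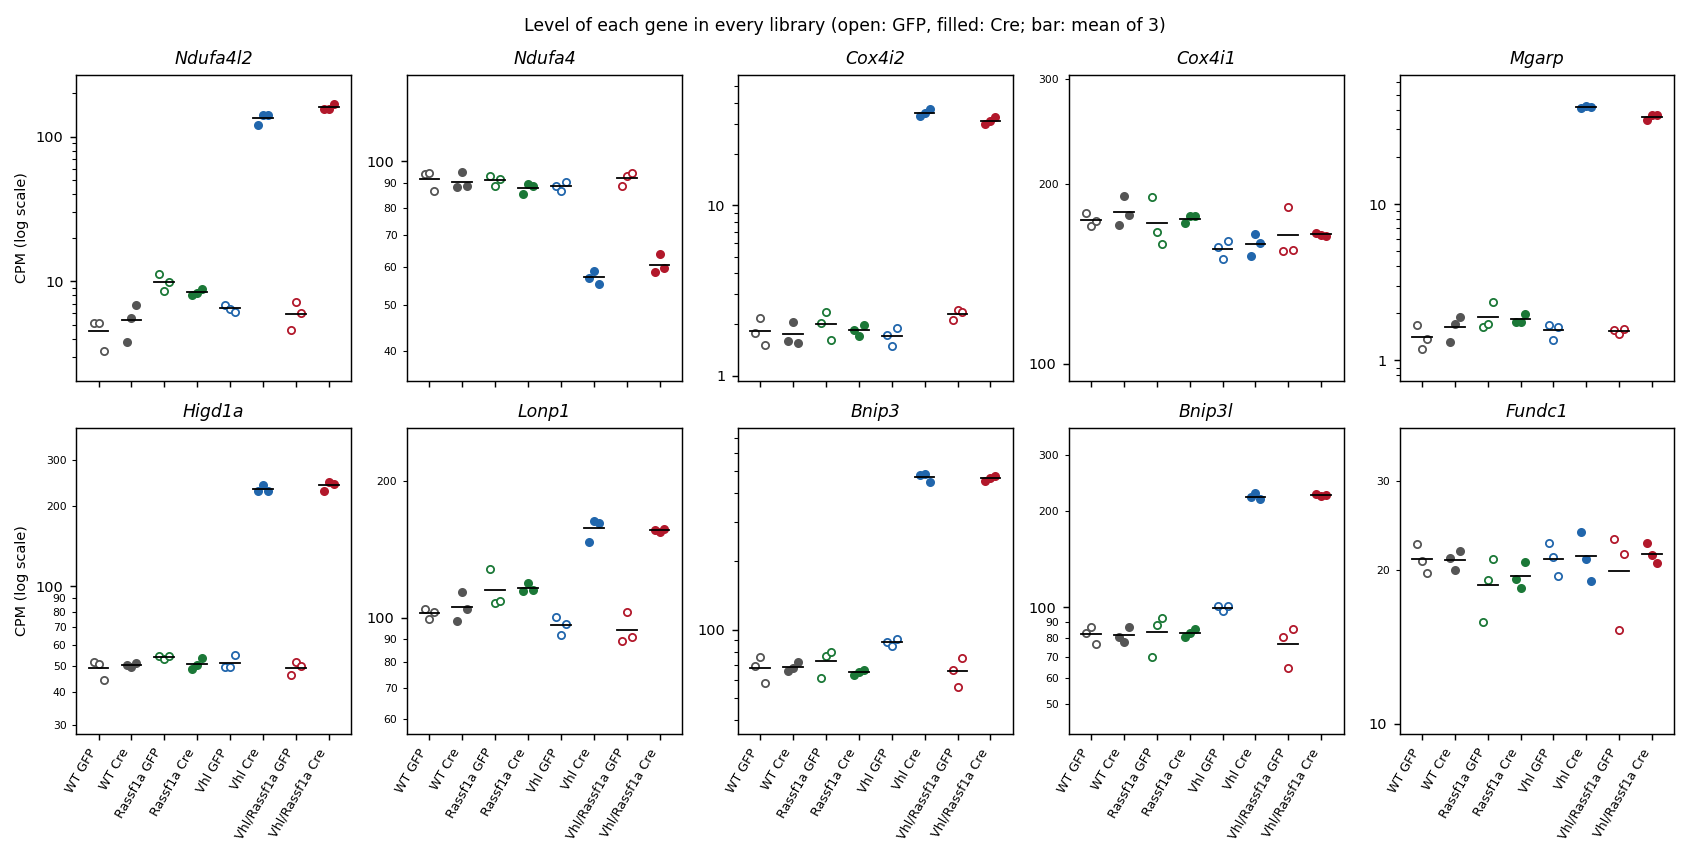
Level of each of the 10 genes in all 24 libraries, in CPM on a log axis, by genotype with GFP (open points) and Cre (filled points); bars are means of 3. In Vhl and Vhl/Rassf1a cells the Cre points of 7 genes lie above and those of Ndufa4 below all GFP points of the same genotype, while those of Cox4i1 and Fundc1 overlap them.

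Ndufa4l2 (ENSMUSG00000040280, chr10:127514967-127517154 on GRCm38, plus strand) encodes a small mitochondrial protein known as a HIF target that lowers electron flow through the respiratory chain. Its paralogue Ndufa4 (ENSMUSG00000029632, chr6:11900292-11907497, minus strand), first named as a part of complex I, encodes a subunit of cytochrome c oxidase (complex IV). The coding sequences of both, from GENCODE M21 transcripts, are shown because the pair exchanged rank with Cre and because reads must tell them apart. Capitals mark runs of 10 or more identical aligned bases.
Ndufa4l2: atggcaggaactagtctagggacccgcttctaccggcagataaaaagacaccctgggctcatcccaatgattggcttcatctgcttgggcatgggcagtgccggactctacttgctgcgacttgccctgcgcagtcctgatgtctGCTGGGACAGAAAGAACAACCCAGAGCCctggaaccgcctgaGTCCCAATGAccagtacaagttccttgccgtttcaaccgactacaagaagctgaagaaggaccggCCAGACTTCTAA
Ndufa4: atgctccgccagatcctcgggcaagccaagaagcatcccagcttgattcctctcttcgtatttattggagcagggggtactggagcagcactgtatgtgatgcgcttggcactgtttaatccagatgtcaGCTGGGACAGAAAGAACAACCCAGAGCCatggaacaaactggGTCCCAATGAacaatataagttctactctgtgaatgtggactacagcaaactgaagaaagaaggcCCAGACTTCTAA
Over 249 aligned bases, 163 (65.5%) were identical, and the 3 runs in capitals held 50 bases, the longest of them 28. Neither gene's transcripts shared a stretch of 50 bases with any other annotated gene, but an exon of Ndufa4l2 overlaps Shmt2 on the opposite strand.

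The level of Ndufa4l2 in Vhl cells was 6.88, 6.49 and 6.12 CPM in the 3 GFP libraries and 121, 142 and 141 CPM in the 3 Cre libraries. In Vhl/Rassf1a cells it was 4.61, 7.15 and 6.02 CPM with GFP and 155, 156 and 168 CPM with Cre. Every Cre library of both genotypes was thus far above every GFP library. Levels were 20.8-fold and 26.7-fold higher with Cre, a log2 change of 4.38 (SE 0.16, adjusted p = 1.09e-15) in the Vhl genotype and 4.74 (SE 0.16, adjusted p = 3.94e-16) in the Vhl/Rassf1a genotype. Elsewhere the gene was low: WT cells had 5.16, 5.13 and 3.29 CPM with GFP and 3.80, 5.59 and 6.88 CPM with Cre, and Rassf1a cells 11.3, 8.64 and 9.91 CPM and 8.10, 8.31 and 8.90 CPM. In order of level, Vhl/Rassf1a Cre stood above Vhl Cre without overlap, then came the Rassf1a groups, which overlapped each other, and then Vhl GFP, Vhl/Rassf1a GFP, WT Cre and WT GFP, each of which overlapped the next.

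Ndufa4 moved the other way. Its level in Vhl cells was 88.8, 86.8 and 90.5 CPM with GFP and 57.0, 58.8 and 55.4 CPM with Cre, and in Vhl/Rassf1a cells 88.7, 93.1 and 94.6 CPM and 58.6, 63.8 and 59.6 CPM. The 6 Cre libraries of these genotypes, at 55.4 to 63.8 CPM, lay below all other 18 libraries, which ran from 85.4 to 95.2 CPM. Ndufa4 fell by 35.7% in Vhl cells, a log2 change of -0.64 (SE 0.05, adjusted p = 3.83e-10), and fell by 34.2% in Vhl/Rassf1a cells, a log2 change of -0.60 (SE 0.05, adjusted p = 1.46e-09).

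To compare the levels of the 2 genes, CPM were divided by the length of all annotated exons of a gene (1095 bases for Ndufa4l2 and 1381 for Ndufa4), and the share of Ndufa4l2 in the sum of both was taken in each library. It was 8.90, 8.61 and 7.87% in Vhl GFP libraries and 72.9, 75.3 and 76.3% in Vhl Cre libraries, or 8.46% ± 0.535 and 74.8% ± 1.75 (SD, n = 3 each; exact permutation test, two-sided, p = 0.10). In Vhl/Rassf1a cells it was 6.15, 8.84 and 7.42% with GFP and 77.0, 75.5 and 78.1% with Cre, or 7.47% ± 1.34 and 76.8% ± 1.29 (p = 0.10 by the same exact test). A test of 3 against 3 libraries cannot go below 0.10, so no share difference could pass the threshold, though no Cre value overlapped a GFP value in these genotypes. The pair exchanged rank: Ndufa4 was the more abundant transcript per length in all 18 other libraries and Ndufa4l2 in the 6 Cre libraries of Vhl and Vhl/Rassf1a cells. The sum of both per kilobase went from 70.2 ± 1.20 to 164 ± 10.8 CPM per kb in Vhl cells and from 72.1 ± 3.21 to 189.8 ± 6.46 in Vhl/Rassf1a cells (SD, n = 3 each). In WT cells the share was 5.81% ± 1.06 with GFP and 6.99% ± 1.88 with Cre (SD, n = 3 each; exact permutation p = 0.40), and in Rassf1a cells 12.1% ± 1.17 and 10.8% ± 0.399 (exact permutation p = 0.20).

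**Figure D2:**
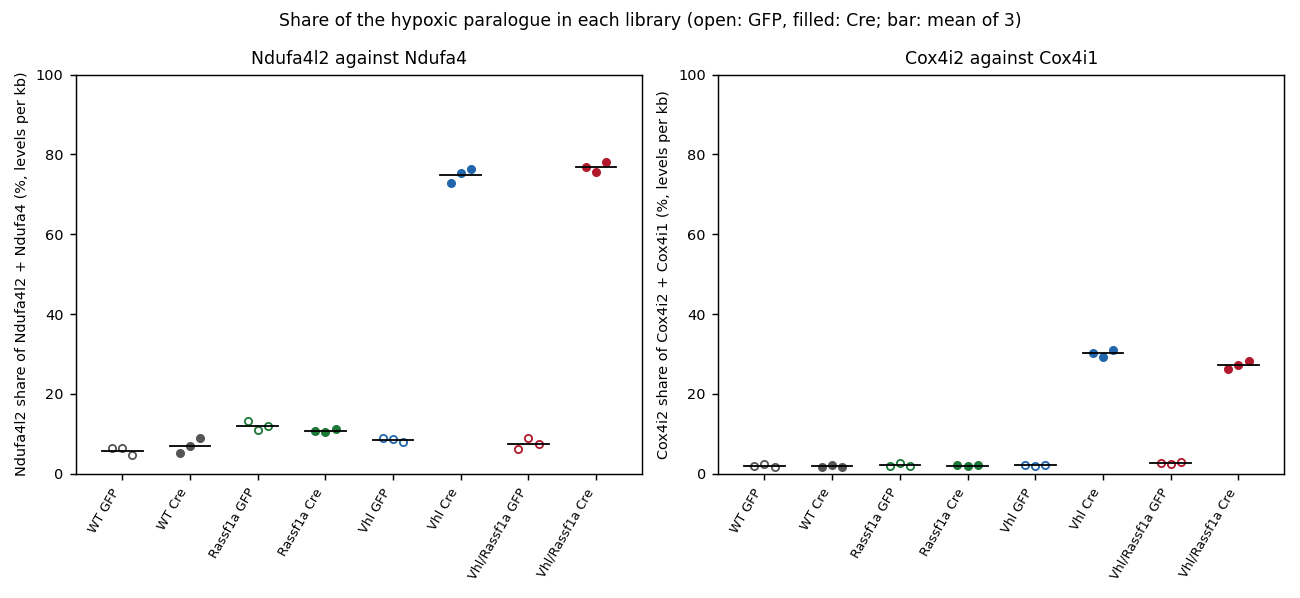
Share of the hypoxic paralogue in the sum of the pair, in percent of levels per kilobase of exon, for each library with GFP (open) and Cre (filled); bars are means of 3. Ndufa4l2 makes up 72.9 to 78.1% of its pair in the Cre libraries of Vhl and Vhl/Rassf1a cells, whereas Cox4i2 makes up 26.2 to 31.0% of its pair there.

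Cox4i2 (ENSMUSG00000009876, chr2:152754173-152765037, plus strand) and Cox4i1 (ENSMUSG00000031818, chr8:120668222-120674207, plus strand) encode alternative forms of subunit 4 of complex IV, which adjusts the activity of the enzyme. Cox4i1 is the form of most tissues and Cox4i2 that of lung and of cells short of oxygen. Cox4i2 stood at 1.74, 1.50 and 1.90 CPM in Vhl GFP libraries and at 33.6, 34.7 and 36.5 CPM in Vhl Cre libraries. The Vhl/Rassf1a libraries held 2.12, 2.42 and 2.36 CPM with GFP and 29.9, 31.2 and 32.7 CPM with Cre. The GFP levels rest on few reads, with at least 45 counts in any library of the 4 genotypes. No Cre value of Vhl or Vhl/Rassf1a cells came near them. Cox4i2 rose by 4.34 (SE 0.12, adjusted p = 1.03e-17) in Vhl cells and by 3.76 (SE 0.12, adjusted p = 8.34e-17) in Vhl/Rassf1a cells on the log2 scale, the former 20.3-fold. In WT and Rassf1a cells its 12 libraries held 1.51 to 2.36 CPM.

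Cox4i1 did not follow Ndufa4. It was at 157, 150.0 and 160.5 CPM in Vhl GFP libraries and 152, 165 and 159.6 CPM in Vhl Cre libraries, and at 154, 183 and 155 CPM and 166, 164 and 164 CPM in Vhl/Rassf1a cells. The groups overlapped, and the log2 fold changes were 0.03 (95% confidence interval -0.11 to 0.16; adjusted p = 0.787) and 0.00 (-0.13 to 0.14; adjusted p = 0.974). The fall of Ndufa4, at -0.64, lies outside both intervals. The coding sequences of Cox4i2 and Cox4i1 were 65.3% identical over 501 aligned bases with no identical run over 14, and 6.65% of the 50-base stretches of Cox4i1 also occur in other genes, chiefly Emc8, which overlaps it on the opposite strand.

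Cox4i2 stayed the minor transcript of its pair. Per kilobase of exon its share was 2.13, 1.93 and 2.28% in Vhl GFP libraries and 30.3, 29.2 and 31.0% in Vhl Cre libraries, or 2.11% ± 0.175 and 30.2% ± 0.895 (SD, n = 3 each; exact permutation p = 0.10). In Vhl/Rassf1a cells it was 2.69% ± 0.191 with GFP and 27.2% ± 1.01 with Cre (SD, n = 3 each; exact permutation p = 0.10). The size of this share depends on the length assigned to Cox4i1, whose annotated exons span 1550 bases but whose longest transcript has 765. With the longest transcript of each gene as its length, the Cre shares were 18.7% ± 0.644 and 16.5% ± 0.704 and the GFP shares 1.13% ± 0.0950 and 1.45% ± 0.104. By either length, Ndufa4l2 was the larger part of its pair with Cre and Cox4i2 the smaller part. In WT cells the share of Cox4i2 was 2.02% ± 0.401 with GFP and 1.87% ± 0.208 with Cre (SD, n = 3 each; exact permutation p = 0.70), and in Rassf1a cells 2.24% ± 0.409 and 2.04% ± 0.144 (exact permutation p = 0.70).

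RefSeq promoter windows of GRCm38.p6, 250 bases before to 50 after a start site, were matched for 6 of the 10 genes: Ndufa4, Mgarp, Higd1a, Lonp1, Bnip3 and Fundc1. They were searched on both strands for ACGTG and GCGTG, the letters at the core of the element that HIF binds, where the palindrome CACGTG counts as a match on each strand. Of all 32851 windows in the table, 19.6% hold ACGTG, 32.4% hold GCGTG and 43.8% hold either. Lonp1 had 2 and 4 matches of these letters, Bnip3 2 and 3, Higd1a 1 and 2, Mgarp 1 and 0, Ndufa4 0 and 1, and Fundc1 0 and 0. At least 3 matches of either occur in 8.9% of all windows. The stretches upstream of the first annotated exon are shown for 3 genes that rose and for Ndufa4, which fell, on the minus strand and in 5′ to 3′ order, with matches in capitals, which read CACGT or CACGC where the match is on the other strand.
Bnip3, chr7:138909520-138909756: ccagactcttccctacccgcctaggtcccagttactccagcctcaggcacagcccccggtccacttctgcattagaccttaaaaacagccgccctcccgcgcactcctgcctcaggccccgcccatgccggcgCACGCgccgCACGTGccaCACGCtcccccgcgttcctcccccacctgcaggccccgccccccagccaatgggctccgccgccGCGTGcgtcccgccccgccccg
Lonp1, chr17:56626904-56627153: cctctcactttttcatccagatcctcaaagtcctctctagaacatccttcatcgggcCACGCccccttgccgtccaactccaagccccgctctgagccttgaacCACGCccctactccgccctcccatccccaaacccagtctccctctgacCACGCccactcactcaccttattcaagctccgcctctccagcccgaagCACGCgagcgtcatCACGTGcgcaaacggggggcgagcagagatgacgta
Mgarp, chr3:51396739-51396797: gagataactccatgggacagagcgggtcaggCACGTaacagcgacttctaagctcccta
Ndufa4, chr6:11907498-11907700: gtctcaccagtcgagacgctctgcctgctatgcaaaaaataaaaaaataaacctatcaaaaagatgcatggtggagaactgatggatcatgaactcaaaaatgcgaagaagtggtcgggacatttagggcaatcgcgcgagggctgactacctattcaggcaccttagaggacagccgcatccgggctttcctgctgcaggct
The match of Ndufa4 lies in the part of its window that is not printed. A match describes the letters in the window and shows neither binding nor its lack.

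Mgarp (ENSMUSG00000037161, chr3:51388412-51396738, minus strand) encodes a mitochondrial protein known for the movement of mitochondria along axons and as a HIF-responsive gene. It had the largest Cre effect of the 10 genes in Vhl cells. Its level was 1.68, 1.34 and 1.64 CPM with GFP and 41.2, 42.1 and 41.5 CPM with Cre, and in Vhl/Rassf1a cells 1.56, 1.47 and 1.58 CPM and 34.4, 37.2 and 37.0 CPM. The 18 other libraries lay between 1.19 and 2.35 CPM, all far below the 6 Cre libraries of these genotypes. On the log2 scale it rose by 4.74 (SE 0.12, adjusted p = 2.43e-18) in Vhl and by 4.56 (SE 0.12, adjusted p = 6.16e-18) in Vhl/Rassf1a cells.

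Higd1a (ENSMUSG00000038412, chr9:121848563-121858362, minus strand) encodes an inner membrane protein induced by hypoxia that associates with the respiratory complexes. In Vhl cells it rose from 49.7, 49.5 and 55.2 CPM to 228, 241 and 229 CPM, and in Vhl/Rassf1a cells from 46.2, 51.8 and 50.1 CPM to 229, 248 and 243 CPM. On the log2 scale it rose by 2.18 (SE 0.06, adjusted p = 9.5e-18) in Vhl and by 2.28 (SE 0.06, adjusted p = 6.16e-18) in Vhl/Rassf1a cells. Of its 50-base stretches 24.4% also occur in other annotated genes, most of them in Gm47112, an antisense transcript at the same place, others in pseudogenes. How reads of such stretches were assigned is not given in the sources used here, and the value is uncertain to that extent.

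Lonp1 (ENSMUSG00000041168, chr17:56614297-56626887, minus strand), the ATP-dependent protease of the mitochondrial matrix, is known in HIF biology as the enzyme that degrades the Cox4i1 protein. It was already abundant with GFP and rose modestly. Its level in Vhl cells was 100.5, 91.8 and 96.9 CPM with GFP and 147, 164 and 161 CPM with Cre, and in Vhl/Rassf1a cells 89.1, 103 and 90.7 CPM and 156, 155 and 156 CPM. No Cre library overlapped the GFP libraries of its genotype. The rise was 0.71 (SE 0.07, adjusted p = 1.64e-08) and 0.73 (SE 0.07, adjusted p = 1.91e-08) on the log2 scale, 1.63-fold and 1.65-fold, the smallest of the 7 increases in both genotypes. No 50-base stretch of Lonp1 occurs in another annotated gene.

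Bnip3 (ENSMUSG00000078566, chr7:138890836-138909519, minus strand) and Bnip3l (ENSMUSG00000022051, chr14:66985239-67008877, minus strand), also called Nix, encode outer membrane proteins that bind LC3-family proteins and so link mitochondria to the forming autophagosome. Bnip3 was at 88.0, 84.7 and 91.1 CPM in Vhl GFP libraries and at 483, 486 and 446 CPM in Vhl Cre libraries. The Vhl/Rassf1a genotype held 66.7, 55.7 and 75.4 CPM with GFP and 453, 468 and 475 CPM with Cre. Among the 10 genes it had the highest level per kilobase in Vhl Cre cells, 208 ± 9.79 CPM per kb (SD, n = 3). It rose by 2.42 (SE 0.10, adjusted p = 9.52e-15) and 2.82 (SE 0.10, adjusted p = 8.84e-16) on the log2 scale.

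Bnip3l followed the direction of Bnip3. It went from 101, 97.5 and 101 CPM to 220.3, 227 and 217 CPM in Vhl cells and from 80.9, 64.4 and 85.5 CPM to 225, 222 and 225 CPM in Vhl/Rassf1a cells. On the log2 scale the rise was 1.15 (SE 0.09, adjusted p = 4.65e-10) in Vhl and 1.54 (SE 0.09, adjusted p = 5.79e-12) in Vhl/Rassf1a cells, and the 95% confidence intervals, 0.97 to 1.33 and 1.36 to 1.73, do not reach those of Bnip3, 2.22 to 2.63 and 2.61 to 3.03. The difference between the 2 genes was not tested. Of the 50-base stretches of Bnip3, 47.2% also occur in other annotated genes, among them the antisense transcript Gm45507 and pseudogenes, and 20.8% of those of Bnip3l occur in the pseudogene Bnip3l-ps. Both values are uncertain to the extent that such reads were split or dropped.

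Fundc1 (ENSMUSG00000025040, chrX:17556564-17572325, minus strand), the mitophagy receptor that is known to be switched by phosphorylation in hypoxia, had no call in any comparison. Its level was 22.6, 21.2 and 19.5 CPM in Vhl GFP libraries and 23.8, 21.0 and 19.1 CPM in Vhl Cre libraries, and 23.1, 15.3 and 21.5 CPM and 22.6, 21.4 and 20.7 CPM in Vhl/Rassf1a cells. The groups overlapped in both genotypes. The log2 fold changes were 0.02 (95% confidence interval -0.23 to 0.26) and 0.12 (-0.13 to 0.36), so a change of the size of Bnip3l lies outside both intervals. The lowest value, 15.3 CPM, was in Vhl/Rassf1a GFP replicate 2, one of the libraries that stand apart.

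**Figure D3:**
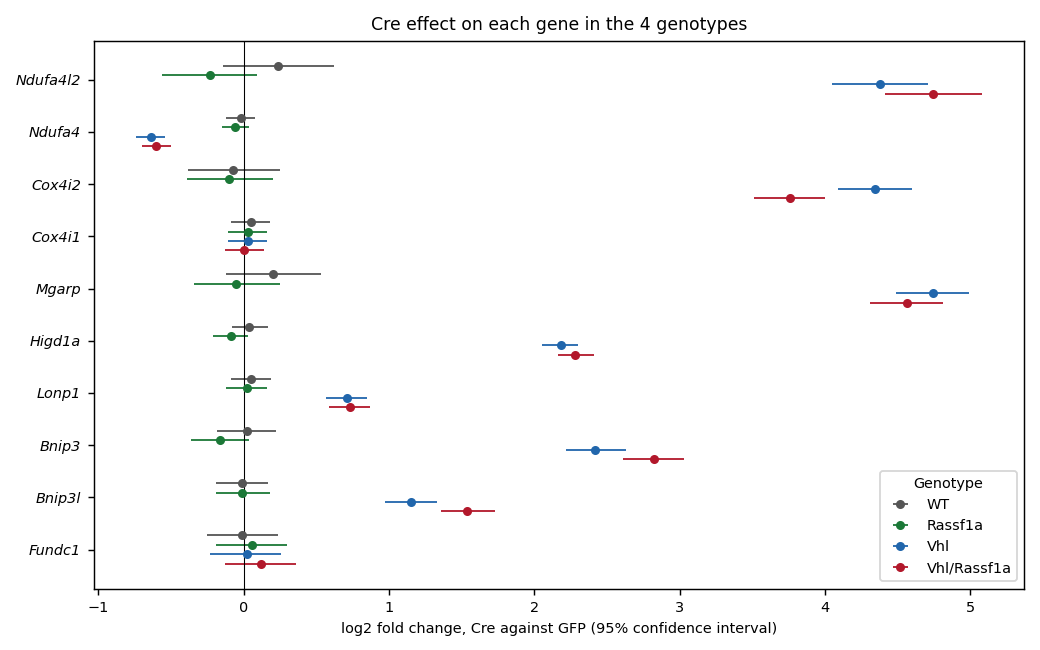
Cre effect on each gene in the 4 genotypes, as log2 fold change of Cre against GFP with its 95% confidence interval. The effects in WT and Rassf1a cells lie between -0.23 and 0.24, and those in Vhl and Vhl/Rassf1a cells between -0.64 and 4.74.

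Without an altered Vhl gene, none of the 10 genes was called with Cre. In WT cells the 10 Cre effects ran from -0.07 to 0.24, with 0 genes past the threshold in edgeR against 1.26% of all genes, 0 at an unadjusted p under 0.05 and 0 in the Wald test of DESeq2. In Rassf1a cells they ran from -0.23 to 0.06, with 0 past the threshold against 0.392% of all genes, 0 at an unadjusted p under 0.05 and 0 in DESeq2. For every one of the 10 genes the Cre and GFP libraries overlapped in both genotypes, while they did not for 15.0% of all genes in WT and 10.7% in Rassf1a cells. Intervals were wide for low genes: Ndufa4l2 had -0.14 to 0.62 in WT and -0.56 to 0.09 in Rassf1a cells, and Cox4i2 -0.38 to 0.25 and -0.39 to 0.20. For the abundant genes they were narrow, as for Cox4i1 (-0.09 to 0.18 and -0.11 to 0.16) and Ndufa4 (-0.12 to 0.08 and -0.15 to 0.04).

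The differences between genotypes were tested as such. The Cre effect in Vhl cells minus that in WT cells was past the threshold above 0 in 7 of the 10 genes and below 0 in 1, against 10.7% and 12.5% of all genes. It was 4.13 (SE 0.24, adjusted p = 1.52e-11) for Ndufa4l2, 4.41 (SE 0.20, adjusted p = 1.66e-13) for Cox4i2 and -0.62 (SE 0.07, adjusted p = 3.41e-07) for Ndufa4. The Cre effect in Vhl/Rassf1a cells minus that in Rassf1a cells gave 7 and 1 as well, against 7.95% and 7.10%, with 4.97 (SE 0.22, adjusted p = 1.42e-13) for Ndufa4l2 and 2.98 (SE 0.14, adjusted p = 2.51e-13) for Bnip3. The Cre effect in Rassf1a cells minus that in WT cells had 0 calls against 0.00603% of all genes, 0 at an unadjusted p under 0.05 and 0 in DESeq2. Without both libraries that stand apart the interval of Bnip3 lay below 0 (-0.27, -0.46 to -0.09), not past the threshold (adjusted p = 0.584 in edgeR). These differences share libraries with the Cre effects above and are not independent of them.

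The Cre effect in Vhl/Rassf1a cells minus that in Vhl cells was past the threshold in 1 of the 10 genes, Cox4i2, below 0, against 2.65% of all genes below and 3.44% above. For Cox4i2 the difference was -0.59 (SE 0.17, adjusted p = 0.0447). Its GFP level was higher in Vhl/Rassf1a cells (2.12 to 2.42 CPM) than in Vhl cells (1.50 to 1.90 CPM) and its Cre level lower (29.9 to 32.7 against 33.6 to 36.5 CPM), with no overlap in either. Its size changed little when 1 library was left out (-0.66 to -0.50), and the call was kept with DESeq2 (0.0176), with the compared groups alone (0.0231), with no filter (0.0359) and with DESeq2 size factors (0.0443). It was lost in 10 of the 12 fits that left out 1 library, with adjusted p between 0.0503 (without Vhl Cre replicate 1) and 0.129 (without Vhl GFP replicate 2), and kept without Vhl GFP replicate 3 (0.046) and without Vhl/Rassf1a GFP replicate 1 (0.0462). Without each of the remaining libraries the adjusted p was 0.0831 (Vhl GFP replicate 1), 0.073 and 0.107 (Vhl Cre replicates 2 and 3), 0.077 and 0.0784 (Vhl/Rassf1a GFP replicates 2 and 3) and 0.0881, 0.0775 and 0.054 (Vhl/Rassf1a Cre replicates 1, 2 and 3). With a replicate block it was 0.0564, and without both libraries that stand apart 0.0602 (log2 difference -0.54).

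For Bnip3 the difference was above 0 at 0.40 (SE 0.13, adjusted p = 0.087), and for Bnip3l at 0.39 (SE 0.12, adjusted p = 0.0629), neither past the threshold. The Wald test of DESeq2 called Bnip3l but not Bnip3, and with no filter both genes were past the threshold in edgeR. Their Cre levels overlapped between the genotypes (453 to 475 and 446 to 486 CPM for Bnip3, 222 to 225 and 217 to 227 CPM for Bnip3l). Their GFP levels did not, being lower in Vhl/Rassf1a cells (55.7 to 75.4 against 84.7 to 91.1 CPM and 64.4 to 85.5 against 97.5 to 101 CPM). Without both libraries that stand apart the differences were 0.30 (SE 0.09, adjusted p = 0.0284) and 0.29 (SE 0.07, adjusted p = 0.00419) in edgeR, past the threshold, and they also passed it without Vhl/Rassf1a GFP replicate 3 (0.51 and 0.48, adjusted p = 0.0254 and 0.0306). For the remaining 7 genes the intervals of the difference over all libraries include 0. Those of Ndufa4 (-0.11 to 0.17), Cox4i1 (-0.21 to 0.17), Lonp1 (-0.18 to 0.21) and Higd1a (-0.07 to 0.28) stay within 0.28 of it. Those of Ndufa4l2 (-0.08 to 0.81), Mgarp (-0.55 to 0.19) and Fundc1 (-0.24 to 0.45) leave room for larger differences. Without both libraries that stand apart, the interval of Ndufa4l2 excluded 0 (0.53, 0.14 to 0.93), with an adjusted p of 0.0745 in edgeR.

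**Figure D4:**
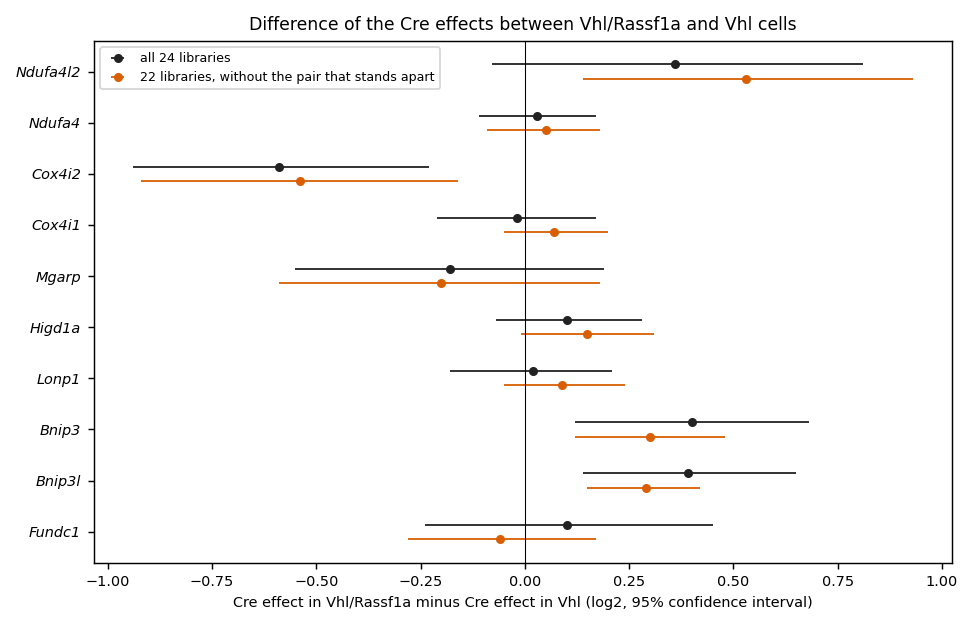
Cre effect in Vhl/Rassf1a cells minus Cre effect in Vhl cells for each gene, on the log2 scale with 95% confidence interval, over all 24 libraries (black) and without the pair that stands apart (orange). Cox4i2 lies below 0 at -0.59 and -0.54, Bnip3 and Bnip3l above 0 at 0.40 and 0.39 over all libraries, and the other intervals over all libraries include 0.

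Whether the effect of both alterations differed from the sum of the single ones was tested with the Cre effect in Vhl/Rassf1a cells, minus those in Vhl and in Rassf1a cells, plus that in WT cells. No gene of the 10 was past the threshold in edgeR, against 3.05% of all genes; 3 had an unadjusted p under 0.05 and 0 were called by DESeq2. The 3 were Ndufa4l2 (0.84, SE 0.32, adjusted p = 0.214), Bnip3 (0.57, SE 0.19, adjusted p = 0.126) and Bnip3l (0.39, SE 0.17, adjusted p = 0.326). For Bnip3 and Bnip3l the value was past the threshold without both libraries that stand apart (0.57, adjusted p = 0.00592, and 0.39, adjusted p = 0.0114), and for Bnip3 also without Rassf1a GFP replicate 1 alone (0.68, adjusted p = 0.0242).

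The GFP libraries of the altered genotypes were compared with WT GFP, which all 3 comparisons share. In Vhl GFP cells 3 of the 10 genes were higher and 0 lower, against 17.2% and 14.9% of all genes. They were Bnip3 (0.37, SE 0.10, adjusted p = 0.00416), Bnip3l (0.28, SE 0.09, adjusted p = 0.0185) and Ndufa4l2 (0.50, SE 0.18, adjusted p = 0.0353). Cox4i1 had -0.16 (SE 0.06, adjusted p = 0.0617) and was past the threshold without both libraries that stand apart (-0.16, adjusted p = 0.00258). The call of Ndufa4l2 was lost without WT GFP replicate 3 (0.181), Vhl GFP replicate 1 (0.0995) or Vhl GFP replicate 2 (0.0726). Bnip3l lost its call without WT GFP replicate 3 (0.097), Vhl GFP replicate 1 (0.0669) or Vhl GFP replicate 3 (0.0575), all adjusted p of edgeR.

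In Rassf1a GFP cells Ndufa4l2 alone of the 10 was called over all libraries, 2.16-fold higher than in WT GFP at 11.3, 8.64 and 9.91 against 5.16, 5.13 and 3.29 CPM (log2 fold change 1.11, SE 0.17, adjusted p = 4.88e-05). Of all genes 9.39% were higher and 6.68% lower there. Mgarp had 0.42 (SE 0.15, adjusted p = 0.067) and passed the threshold without WT GFP replicate 1 (0.58, adjusted p = 0.0278) or Rassf1a GFP replicate 1 (0.50, adjusted p = 0.0382) and without both libraries that stand apart (0.50, adjusted p = 0.0281). Without both, Bnip3 passed it as well (0.20, adjusted p = 0.0376). In Vhl/Rassf1a GFP cells 0 of the 10 were past the threshold in edgeR, against 11.5% of all genes, 2 had an unadjusted p under 0.05 (Ndufa4l2 at 0.38 and Cox4i2 at 0.33) and DESeq2 called 0. Without both libraries that stand apart, Cox4i1 (-0.17, adjusted p = 0.00978) and Lonp1 (-0.19, adjusted p = 0.019) were past it below 0.

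Compared per kilobase of exon, the 10 genes spanned a wide range. In WT GFP cells Cox4i1 (112 ± 2.85 CPM per kb) and Ndufa4 (66.5 ± 3.34) were the most abundant and Mgarp (0.685 ± 0.121) and Cox4i2 (2.31 ± 0.430) the least (SD, n = 3). In Vhl Cre cells the order of level was Bnip3 (208 ± 9.79), Ndufa4l2 (123 ± 10.6), Cox4i1 (102 ± 4.41), Higd1a (76.5 ± 2.34), Bnip3l (57.4 ± 1.36), Cox4i2 (44.3 ± 1.86), Ndufa4 (41.3 ± 1.23), Lonp1 (36.0 ± 2.05), Mgarp (20.1 ± 0.227) and Fundc1 (9.06 ± 1.01). With the longest transcript as length, Cox4i1 stood above Ndufa4l2, at 198 to 216 against 122 to 143 CPM per kb in the 3 libraries, and the order of the others was the same. By either length Mgarp, with the largest fold change, was the second lowest in level.

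The counts of other mitochondrial genes stand beside those over all genes, of which 17.4% rose and 18.7% fell in Vhl cells and 14.9% and 14.8% in Vhl/Rassf1a cells. For complex IV, of 17 further subunits 15 were tested, and in Vhl cells 1 rose and 3 fell, with a median log2 fold change of 0.01. The one that rose was Cox7a1, the muscle form of subunit 7a (1.15, SE 0.27, adjusted p = 0.00172), whose level was 0.472 CPM ± 0.221 with GFP against 1.05 CPM ± 0.212 with Cre (SD, n = 3 each). The mitochondrially encoded core subunits mt-Co2 (-0.88, SE 0.20, adjusted p = 0.000943) and mt-Co1 (-0.66, SE 0.18, adjusted p = 0.00697) fell. In Vhl/Rassf1a cells 2 rose and 0 fell (median 0.01), with Cox7a1 at 1.42 and mt-Co2 and mt-Co1 at -0.14 and -0.25, not past the threshold. Without GFP replicate 2 or GFP replicate 3 the count that fell was 1. Without both libraries that stand apart the counts were 5 and 3, and mt-Co2 (-0.36, adjusted p = 0.031 in edgeR) and mt-Co1 (-0.52, adjusted p = 1.38e-07) passed it. Of 20 assembly factors 17 were tested, of which 2 rose and 2 fell in Vhl cells (median 0.06) and 2 rose and 4 fell in Vhl/Rassf1a cells (median 0.02). These small counts depend on single libraries: in Vhl cells the count that fell was 0 without GFP replicate 1, GFP replicate 3 or Cre replicate 1 and 1 without GFP replicate 2 or Cre replicate 3. For Vhl/Rassf1a the count that rose was 0 without Cre replicate 2 and 1 without GFP replicate 1, GFP replicate 3 or Cre replicate 1, and the count that fell was 2 without GFP replicate 2 or Cre replicate 3 and 1 when the fit held the compared groups alone. Cox19, a copper-handling factor, was at 0.33 in Vhl cells and Higd2a, a relative of Higd1a, at 0.33, both past the threshold. Coa3 was at -0.18, a call lost without Vhl GFP replicate 1 or 3 or Vhl Cre replicate 1 (adjusted p = 0.0755, 0.0987 and 0.107 in edgeR).

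Besides Lonp1, 16 mitochondrial proteases and chaperones were tested, of which 3 rose and 3 fell in Vhl cells (median 0.00), and 0 rose and 7 fell in Vhl/Rassf1a cells (median -0.12), against 14.8% of all genes that fell, and a fit of the compared groups alone gave 4 in place of 7. Without Vhl/Rassf1a GFP replicate 2 or GFP replicate 3, 1 rose there. One of the 7 is the protease Htra2 (-0.66), named here after its values were seen because with Cre it also fell by 49.8% in WT cells (adjusted p = 6.46e-06) and fell by 50.1% in Rassf1a cells (adjusted p = 5.77e-06), and was not past the threshold in Vhl cells (-0.05). The chaperonin pair Hspe1 (-0.31, SE 0.05, adjusted p = 4.01e-05) and Hspd1 (-0.21, SE 0.06, adjusted p = 0.0104) fell in Vhl cells, and both fell in Vhl/Rassf1a cells (-0.46 and -0.43). The call of Hspd1 in Vhl cells was lost without Vhl Cre replicate 2 (adjusted p = 0.0504 in edgeR). Grpel1, a co-chaperone of the import motor, rose in Vhl cells (0.26).

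Of 18 other mitophagy receptors and regulators 17 were tested, and 3 rose and 1 fell in Vhl cells (median 0.08) while 1 rose and 0 fell in Vhl/Rassf1a cells (median -0.01), against 17.4% and 18.7%, and 14.9% and 14.8%, of all genes. The Vhl count that rose was 1 without Cre replicate 2 or Cre replicate 3, and the count that fell was 2 without GFP replicate 2. The Vhl/Rassf1a count that rose was 2 without GFP replicate 2, and that which fell 2 without GFP replicate 1 or GFP replicate 3. Nipsnap1, a mitochondrial signal for autophagy, fell (-0.28, SE 0.07, adjusted p = 0.00277). Nbr1, an autophagy receptor, was at 0.12 and Mul1, a mitochondrial ubiquitin ligase, at 0.24, both past the threshold. The call of Nbr1 was lost with no filter (adjusted p = 0.302 in edgeR), and that of Mul1 without Vhl GFP replicate 1 or Vhl Cre replicate 2 or 3 (adjusted p = 0.0992, 0.0786 and 0.0601 in edgeR). Of 22 core autophagy genes 8 rose and 0 fell in Vhl cells (median 0.10), and 10 rose and 0 fell in Vhl/Rassf1a cells (median 0.17), beside the same shares of all genes. Without both libraries that stand apart 10 rose and 2 fell in Vhl cells. The Vhl/Rassf1a count that rose was 6 with no filter, 4 when the fit held the compared groups alone and 14 without both libraries that stand apart. Atg16l1 (0.41, SE 0.05, adjusted p = 1.23e-06) and Atg12 (0.37, SE 0.07, adjusted p = 0.000265), parts of the complex that attaches lipid to LC3, and Atg13 (0.26, SE 0.06, adjusted p = 8e-04), a subunit of the initiating kinase complex, had the smallest adjusted p of the list in Vhl cells, where the largest log2 fold change was 0.45.

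Of 10 genes used to gauge the amount of mitochondria 1 rose and 1 fell in Vhl cells (median -0.04), and 1 rose and 3 fell in Vhl/Rassf1a cells (median -0.09), against 17.4% and 18.7%, and 14.9% and 14.8%, of all genes. Without Vhl Cre replicate 1, 2 rose in Vhl cells. The one that rose over all libraries was Vdac1, the main pore of the outer membrane, in Vhl cells (0.60, SE 0.04, adjusted p = 3.9e-11) as in Vhl/Rassf1a cells (0.53). Sdha, a subunit of complex II, fell in both (-0.15 and -0.11), but the call was lost with no filter (adjusted p = 0.0516 and 0.182 in edgeR), and in Vhl/Rassf1a cells also without GFP replicate 1 (0.0698), without Cre replicate 3 (0.0525) or in a fit of the compared groups alone (0.16). Of 15 genes of mitochondrial biogenesis and dynamics 1 rose and 0 fell in Vhl cells (median 0.02), and 0 rose and 1 fell in Vhl/Rassf1a cells (median 0.03). Without both libraries that stand apart 4 rose in Vhl cells. The Vhl/Rassf1a count that fell was 0 without Cre replicate 3 and 2 without GFP replicate 1 or GFP replicate 2. The one that rose was the fusion protein Mfn2 (0.21). In both genotypes all 6 reference genes of the hypoxia response (Egln3, Car9, Vegfa, Pdk1, Slc2a1 and Adm) rose, with medians of 1.84 and 1.77.

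**Figure D5:**
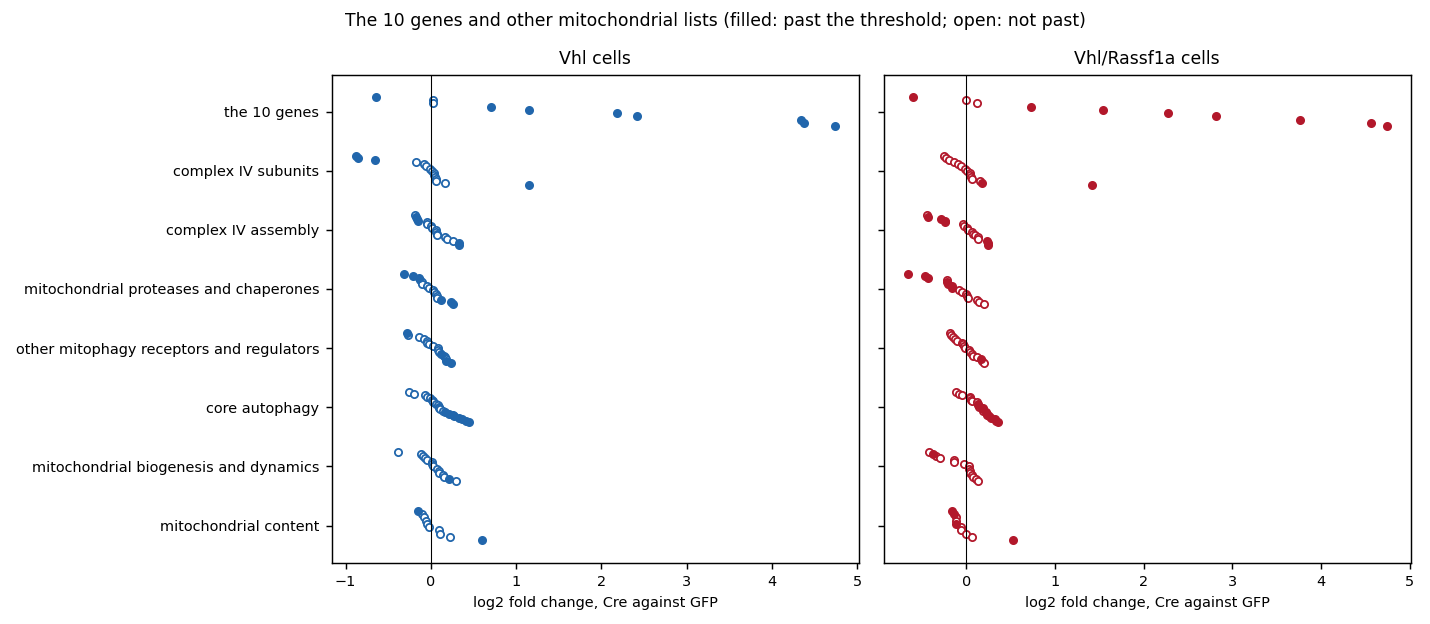
Cre effect of the 10 genes and of the tested members of 7 other mitochondrial lists in Vhl cells (left) and Vhl/Rassf1a cells (right), as log2 fold change; filled points are past the threshold and open points are not. In Vhl cells 6 of the 10 genes lie above 1 on this axis, as does Cox7a1 among the other lists.

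Summed markers of some other cell types also differed between Cre and GFP libraries. The 5 epithelial markers, mostly Krt19, summed to 37.5 to 38.6 CPM in Vhl GFP libraries and 124.9 to 144.9 CPM in Vhl Cre libraries, and to 75.1 to 96.6 and 192.6 to 200.3 CPM in Vhl/Rassf1a cells. The 5 skeletal muscle markers, mostly Acta1, went from 76.3 to 91.9 CPM with GFP to 301.6 to 368.4 CPM with Cre in Vhl cells and from 153.8 to 191.8 to 409.9 to 428.1 CPM in Vhl/Rassf1a cells, with 4 of the 5 below 1 CPM throughout. Of the 4 epithelial markers tested, 4 rose in Vhl cells and 2 in Vhl/Rassf1a cells. Beside this count and those of the other markers, 17.4% of all genes rose and 18.7% fell in Vhl cells. In Vhl/Rassf1a cells the shares were 14.9% and 14.8%. Pericytes express Ndufa4l2 and Cox4i2 in tissue. The 10 pericyte and mural markers summed to 1181 to 1242 CPM in Vhl GFP and 1025 to 1135 CPM in Vhl Cre libraries. Higd1b and Vtn were at 0 in the Vhl Cre and also in the Rassf1a GFP libraries, and Vtn was at 0 in Rassf1a Cre and both Vhl/Rassf1a groups as well. For Vhl/Rassf1a the sum was 1179 to 1456 CPM with GFP and 928.2 to 970.1 CPM with Cre. Of the 8 tested, 3 rose (Kcnj8, Notch3 and Des) and 1 fell (Pdgfrb) in Vhl cells (median 0.00), and 3 rose and 3 fell in Vhl/Rassf1a cells (median 0.16). The 6 endothelial markers were low. Their sum was higher with Cre in Vhl cells, at 5.55 to 6.75 CPM with GFP against 11.9 to 13.1 CPM with Cre. In Vhl/Rassf1a cells it was 11.6 to 12.4 against 12.9 to 14.5 CPM. WT cells had 11.7 to 12.8 CPM with GFP, which overlapped Vhl Cre, and 10.1 to 11.5 CPM with Cre. Rassf1a cells had 6.36 to 8.32 and 6.95 to 7.60 CPM. Of the 5 tested, 3 rose in Vhl cells (median 1.04) and 2 in Vhl/Rassf1a cells (median 0.75). The 5 macrophage markers summed to at most 6.92 CPM in every group. Their sum was 4.50 to 5.17 CPM with GFP and 4.74 to 5.18 CPM with Cre in Vhl cells. In Vhl/Rassf1a cells it was 3.94 to 5.15 CPM with GFP and 5.91 to 6.92 CPM with Cre. Of the 3 tested, 1 rose in Vhl cells and 1 in Vhl/Rassf1a cells. Fibroblast markers went the other way in Vhl cells, where 4 of 6 fell (Col1a1, Col1a2, Col3a1 and Pdgfra; median -0.40) and the sum was 32800 to 34740 CPM with GFP and 25580 to 28320 CPM with Cre. Their log2 fold changes in Vhl/Rassf1a cells ran from -0.12 to 0.06. The part of any of these markers in the levels of the 10 genes was not tested.

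The genes whose pattern over the 8 group means of log2 CPM was most like a member's were taken from 10225 tested genes of at least 5 CPM. For Ndufa4l2 they were Aldoc, Tbl2 and Ndrg2 (Pearson's r of 0.9989, 0.998 and 0.997), for Cox4i2 Hk1, Prelid2 and Pfkp (0.9994, 0.9963 and 0.9963) and for Bnip3 Pgm1, Pafah1b3 and Ak4 (0.9977, 0.9975 and 0.9971). For Cox4i1, whose means vary little, they were Anks1b, Deptor and Foxs1 (0.9899, 0.9807 and 0.9806). These values describe 8 points that share libraries, and for the first 3 genes 2 of the points lie far from the other 6.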

How the data were processed

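RNA of 24 libraries was measured, 3 in each of 8 groups, grouped by the sample titles. The deposited table holds raw read counts per Ensembl gene. RNA was taken with a NucleoSpin kit and made into stranded TruSeq libraries, per the labels' protocols. Trimmomatic 0.38, STAR 2.5.2b and GRCm38 are named in the submitters' processing notes. For counting, the tool, strand rule and gene models were not given in the sources used here. The design note of the series speaks of kidney tubule single cells; the sample labels were followed.

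Symbols, lengths and transcripts came from GENCODE M21, and promoters from RefSeq. Genes were kept by filterByExpr of edgeR 4.0.16 (minimum count 10, total 15). One quasi-likelihood model with 1 mean per group and TMM scaling over all 24 libraries was used (R 4.3.3), with a common biological coefficient of variation of 7.73%. The p-values are two-sided and adjusted by Benjamini-Hochberg over 16573 genes within each of 12 comparisons. The SE is the log2 fold change over the square root of F. Shares were compared by exact permutation in scipy 1.17.1. Intervals cover the fitted spread between libraries.

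Alternatives were size factors of DESeq2, its Wald test (1.42.0), no filter, a replicate block, only the groups compared, each library left out, both libraries that stand apart left out, and other lengths for shares. Named genes were the 10 members, Vhl, up to 3 genes per list with the smallest adjusted p in Vhl cells, and 3 genes most like each of 4 members. Members and lists were chosen with earlier results of these data known.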

Additional observations from a re-analysis of the deposited data

Results flagged for a closer look

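The Cre effect of 8 genes differed between Vhl and WT cells by a test of the difference itself. The log2 differences were Ndufa4l2 4.13, Cox4i2 4.41, Mgarp 4.53, Higd1a 2.13, Lonp1 0.66, Bnip3 2.40 and Bnip3l 1.16, and that of Ndufa4 was -0.62 (edgeR adjusted p from 1.79e-14 to 1.48e-05). The Cre effect of the same 8 genes differed between Vhl/Rassf1a and Rassf1a cells, with log2 differences of Ndufa4l2 4.97, Cox4i2 3.85, Mgarp 4.61, Higd1a 2.37, Lonp1 0.71, Bnip3 2.98 and Bnip3l 1.55, and of -0.55 for Ndufa4 (adjusted p from 3.13e-15 to 1.13e-05). Between Vhl/Rassf1a and Vhl cells the Cre effect of Cox4i2 differed by -0.59 (adjusted p = 0.0447), a call that single libraries decide. Groups of 3 libraries are too small for a test of single outlying samples.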

How the results depend on the processing

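For the 10 genes in 12 comparisons, 1808 of 1850 alternative values kept their side of the threshold, 18 lost a call, 24 gained one and 0 calls reversed. Values that were not past the threshold could change sign. The Cre effect of Fundc1 in Vhl/Rassf1a cells, for example, went from 0.12 to -0.04 without both libraries that stand apart. All 96 alternatives of the 8 called genes in Vhl cells, and all 96 in Vhl/Rassf1a cells, kept the call (largest adjusted p 2.87e-07 and 0.00044). For Vhl/Rassf1a minus Vhl, the count of genes above 0 was 0 and became 2 with no filter, 1 with DESeq2, 2 without both libraries that stand apart and 0 to 2 with single libraries left out. The count below 0 was 1 and became 0 with a replicate block, 0 without both libraries and 0 to 1 with single libraries left out. For non-additivity above 0 it was 0 and became 2 with no filter, 2 without both libraries and 0 to 1 with single libraries left out. For Vhl GFP against WT GFP the count below was 0 and became 1, Cox4i1, with size factors of DESeq2, no filter, DESeq2, only the groups compared or without both libraries; the count above was 3 and ran from 1 to 3 with single libraries left out. For Rassf1a GFP the count above was 1, 3 without both libraries and 1 to 2 with single libraries left out. For Vhl/Rassf1a GFP the count above was 0 and became 1 with no filter, and below 0 became 2 without both libraries. The cause was not tested. With raw counts in place of levels per length, the Cre minus GFP share difference of Ndufa4l2 was 63.37 points in Vhl (66.35 per length) and 66.45 in Vhl/Rassf1a cells (69.37). That of Cox4i2 was 28.09 and 24.47 points per exon length, 17.54 and 15.08 with the longest transcript and 16.95 and 14.55 with raw counts, since the lengths assigned differ. Same-numbered libraries did not deviate together (correlations from -0.092 to 0.035). With 3 libraries per group this cannot settle whether the numbers pair samples, and the labels do not give the embryo or culture behind each library. The replicate block changed no other count of the 10 genes. A fit of only the groups compared cannot be made for non-additivity, which uses all 8. Of 384 alternative counts over the other lists, 70 moved by over 1.5 times. Depth limits Cox4i2 and Mgarp, which had at least 41 counts per library outside the Vhl-altered Cre groups.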
